A study of Rattus norvegicus with 10 samples.

Results

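The semaphorins, ephrins, netrins and Slits and their receptors were examined in cultured rat cells of the oligodendrocyte lineage in which the microRNA miR-145 had been raised or blocked. The genes were all those of the deposited table for miR-145 mimic against control mimic whose rat symbol is that of a numbered Sema, Epha, Ephb, Efna, Efnb, Slit, Robo or Ntn gene or starts with Plxna to Plxnd or Unc5, together with Nrp1, Nrp2 and Dcc. The netrin-G genes Ntng1 and Ntng2 lie outside this rule, which gave 65 genes of 16129. RNA had been sequenced in 10 libraries, 2 for each of 5 groups, from primary cells shaken off mixed glial cultures of newborn Sprague-Dawley rat cortex. Oligodendrocytes (OLs) were taken 5 days after transfection at 30 nM with a miR-145 mimic (OL miR-145), with miR-145 and miR-219 mimics together (OL miR-145+miR-219) or with a control mimic (OL miR-ctl), all in differentiation medium with T3 and CNTF. Oligodendrocyte precursor cells (OPCs) were taken 24 h after transfection at 30 nM with an inhibitor of miR-145 (OPC anti-miR-145) or a control inhibitor (OPC anti-miR-ctl), in medium with the growth factors PDGFAA and FGF2. For the OL miR-145 libraries 1 label names both mimics, whereas their titles and descriptions name miR-145 alone, and these were followed. The study describes its replicates as biological and, for primary cells, as enriched cultures from single animals, in words that name mice while these cells were rat. Whether libraries of different groups with the same replicate number share a culture was not stated.

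Guidance molecules steer growing axons and migrating cells by attraction or repulsion. Semaphorins signal through plexins, the secreted class 3 members mostly with a neuropilin as co-receptor. Ephrins are membrane-bound ligands of the Eph receptor tyrosine kinases, A-type ephrins being held by a lipid anchor and B-type ephrins crossing the membrane, and both partners can signal into their own cell. Netrin-1 attracts through Dcc and repels through Unc5 receptors, and Slits repel through Robo receptors. OPCs use several of these cues to migrate, and OLs present some of them, such as Sema4d, Sema5a and ephrin-B3, to axons. By role, the 65 genes were 7 secreted and 13 membrane-bound semaphorins, 2 neuropilins, 9 plexins, 4 A-type and 3 B-type ephrins, 7 EphA and 5 EphB receptors, 3 netrins, 5 netrin receptors, 3 Slits, 3 Robos, and Unc50, which matched by its name only and is no netrin receptor.

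A mimic acts through the seed of the mature microRNA, bases 2 to 8, shown here in capitals in the rat sequences of RefSeq (GRCr8). The inhibitor given to OPCs instead blocks miR-145 itself. The labels give the mimic as miR-145-5p, and they give no arm for miR-219, for which the 5p arm is shown.
rno-miR-145-5p: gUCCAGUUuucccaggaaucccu
rno-miR-219a-5p: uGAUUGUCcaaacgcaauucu
The first lies on the minus strand of chromosome 18 at 57370033 to 57370055 and the second on the minus strand of chromosome 3 at 33516561 to 33516581. The seeds UCCAGUU and GAUUGUC differ. Target sites in the guidance transcripts were not searched, and microRNA levels were not analysed here.

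Library totals ran from 33505706 to 42684206 estimated counts, and levels are given as CPM, counts relative to the library size as scaled by TMM over the 10 libraries, a unit that compares libraries but not genes of different length. The labelled stages matched their markers in sum. Summed over 9 genes of maturing OLs (among them Mbp, Mag and Mog), levels were 11667 to 20977 CPM in OL miR-ctl and 1068 to 1126 CPM in OPC anti-miR-ctl. A list of 8 OPC genes (among them Pdgfra and Cspg4) summed to 2500.0 to 3228 and 6177 to 6326 CPM. Of these 8, 6 were lower in OLs and 2 higher, Gpr17 and C1ql1. Gpr17 stood at 375 and 265 CPM in OL miR-ctl and at 25.8 and 21.4 CPM in OPC anti-miR-ctl. The OL cultures also held RNA of astrocyte genes, and 8 of them, led by Gfap, summed to 5864 to 6869.8 CPM in OL miR-ctl, 9817 to 14413 CPM in OL miR-145 and 7125 to 11961 CPM in OL miR-145+miR-219, against 762 to 784 CPM in OPC anti-miR-ctl. These are bulk libraries, in which fewer cells of a type and less RNA per cell cannot be told apart.

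**Figure D1:**
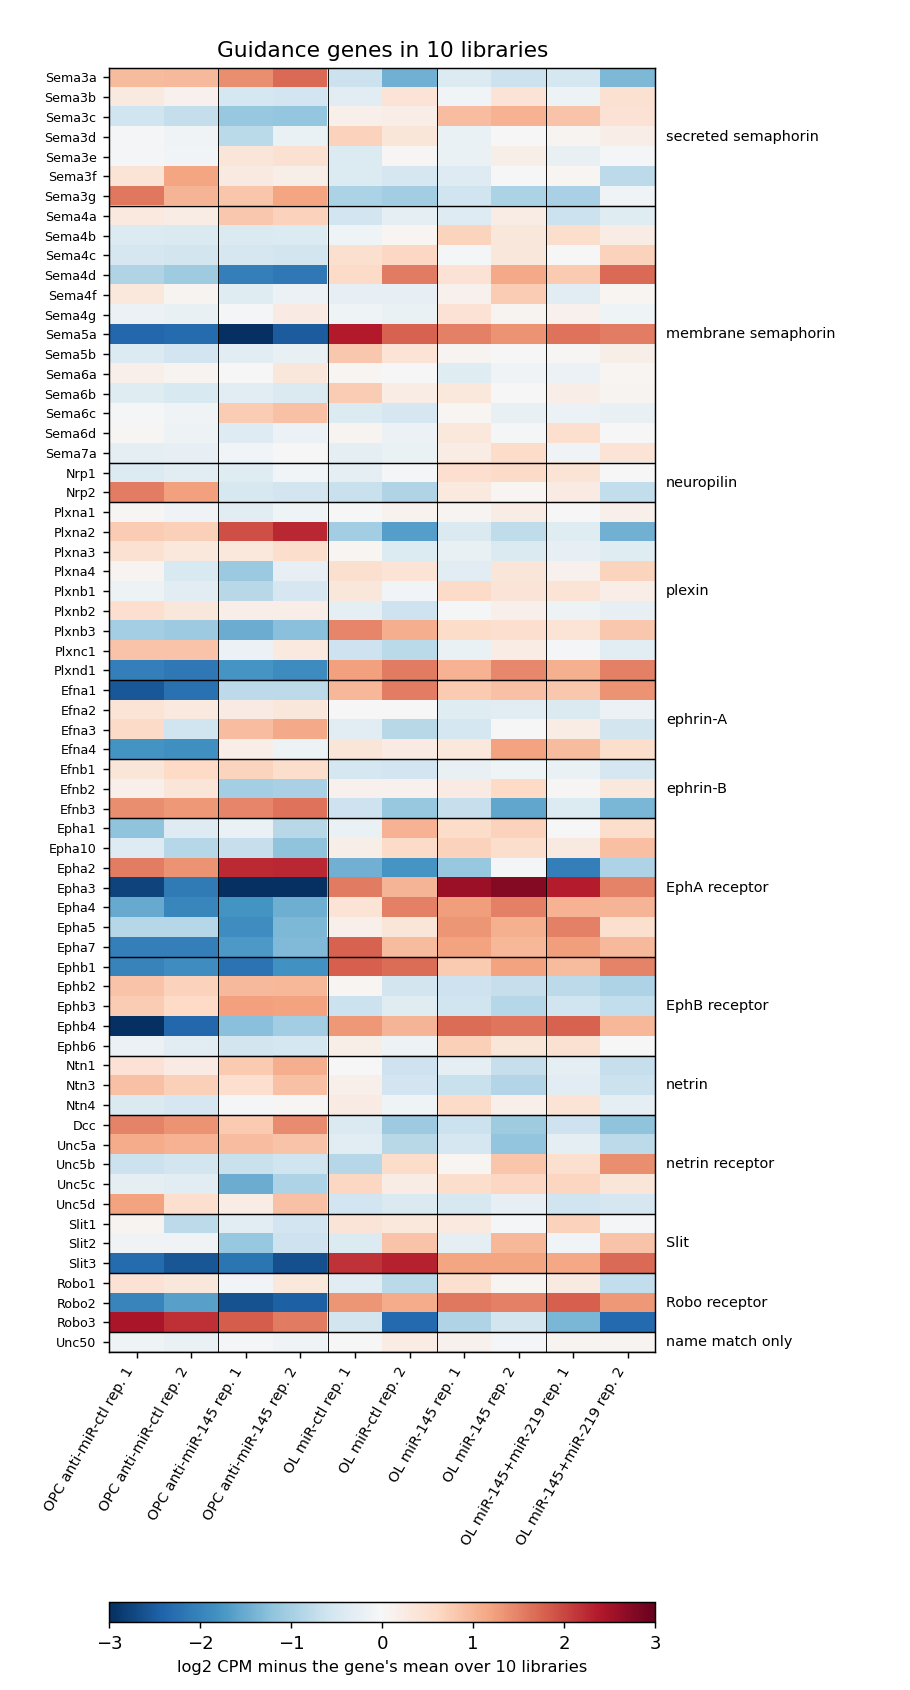
Level of each of the 65 guidance genes (rows, grouped by role) in each of the 10 libraries (columns), as log2 CPM minus the gene's mean over the 10 libraries; colours end at 3 in either direction. The OL and OPC libraries separate in genes such as Sema5a, Slit3, Epha3, Ephb1, Plxnd1 and Robo3, and within the OPCs Nrp2, Plxna2, Efna1 and Efna4 separate anti-miR-145 from anti-miR-ctl.

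The control OLs and control OPCs were compared first, to place each gene in the lineage. Of 64 guidance genes tested, 22 were higher in OL miR-ctl and 21 were lower at an adjusted p under 0.05 (edgeR quasi-likelihood test, Benjamini-Hochberg adjustment). That is 34.4% and 32.8% of them, beside 28.8% called higher and 28.7% called lower among all 15721 genes tested, so the share of guidance genes called was near that of all genes. The median log2 fold change of the guidance genes was 0.04, and that of all genes 0.01. Stage, medium, time after transfection and the kind of control oligonucleotide all differ between these groups and cannot be told apart, and the astrocyte sum given above moved with them, where its part in the result was not tested.

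Among the semaphorins, 6 of 13 membrane-bound members were called higher in OLs and 1 lower (median log2 fold change of the 13, 0.02). Of 7 secreted members 2 were called higher and 3 lower (median -0.13). Sema5a, a transmembrane semaphorin with thrombospondin repeats, stood at 25.1 and 25.9 CPM in the OPC anti-miR-ctl libraries and at 665 and 441 CPM in the OL miR-ctl libraries (log2 fold change 4.42, SE 0.23, adjusted p = 0.000119). Sema4d, whose receptor is plexin B1, stood at 31.9 and 28.3 CPM in OPCs and 89.7 and 176 CPM in OLs (log2 fold change 2.12, SE 0.33, adjusted p = 0.00399). For both genes the OL libraries lay far above the OPC libraries, although the 2 OL libraries differed from each other by more than the 2 OPC libraries did. Sema4c (log2 fold change 1.06), Sema5b (1.10), Sema6b (0.92) and Sema4b (0.37) rose less, and Sema4a fell by 0.68 on the log2 scale. The secreted chemorepellent Sema3a went the other way, from 136 and 137 CPM in OPCs to 44.5 and 25.6 CPM in OLs (log2 fold change -1.97, SE 0.26, adjusted p = 0.00228). Sema3c and Sema3d rose modestly (log2 fold changes 0.83 and 0.60). Sema3g and Sema3f fell but were barely expressed, Sema3g with 36 and 20 counts in OPCs against 4 and 3 in OLs and Sema3f with 17 and 26 against 8 and 6, a call that DESeq2 did not make (adjusted p = 0.165). Sema6a, at 184 and 176 CPM in OPCs and 172 and 165 CPM in OLs, had non-overlapping libraries but did not pass (log2 fold change -0.11, SE 0.08, adjusted p = 0.266).

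The receptors divided in the same comparison. Plexin D1, a receptor of Sema3e, stood at 7.62 and 7.22 CPM in OPCs and 74.9 and 94.1 CPM in OLs (log2 fold change 3.49, SE 0.15, adjusted p = 7.41e-05). Plexin B3, the receptor of Sema5a, stood at 232 and 219.7 CPM in OPCs and 1293 and 1004 CPM in OLs (log2 fold change 2.33, SE 0.14, adjusted p = 0.000192). These were the only 2 of 9 plexins called higher in OLs. Another 4 plexins were called lower, led by Plxna2, a partner of neuropilins, at 81.2 and 78.6 CPM in OPCs and 23.2 and 15.0 CPM in OLs (log2 fold change -2.07, SE 0.21, adjusted p = 0.000965), with Plxnc1 at -1.58, Plxnb2 at -0.88 and Plxna3 at -0.56 on the log2 scale. Nrp2, the neuropilin that binds Sema3f best, stood at 89.2 and 72.1 CPM in OPCs and 19.5 and 16.4 CPM in OLs (log2 fold change -2.18, SE 0.15, adjusted p = 0.000257). Nrp1, the main Sema3a co-receptor, had 8.84 and 9.22 CPM in OPCs and 9.69 and 11.4 CPM in OLs and did not pass (log2 fold change 0.21, SE 0.14, adjusted p = 0.258). Plxna4 had 2.93 and 2.00 CPM in OPCs and 3.89 and 3.71 CPM in OLs and did not pass either (log2 fold change 0.61, SE 0.25, adjusted p = 0.089).

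**Figure D2:**
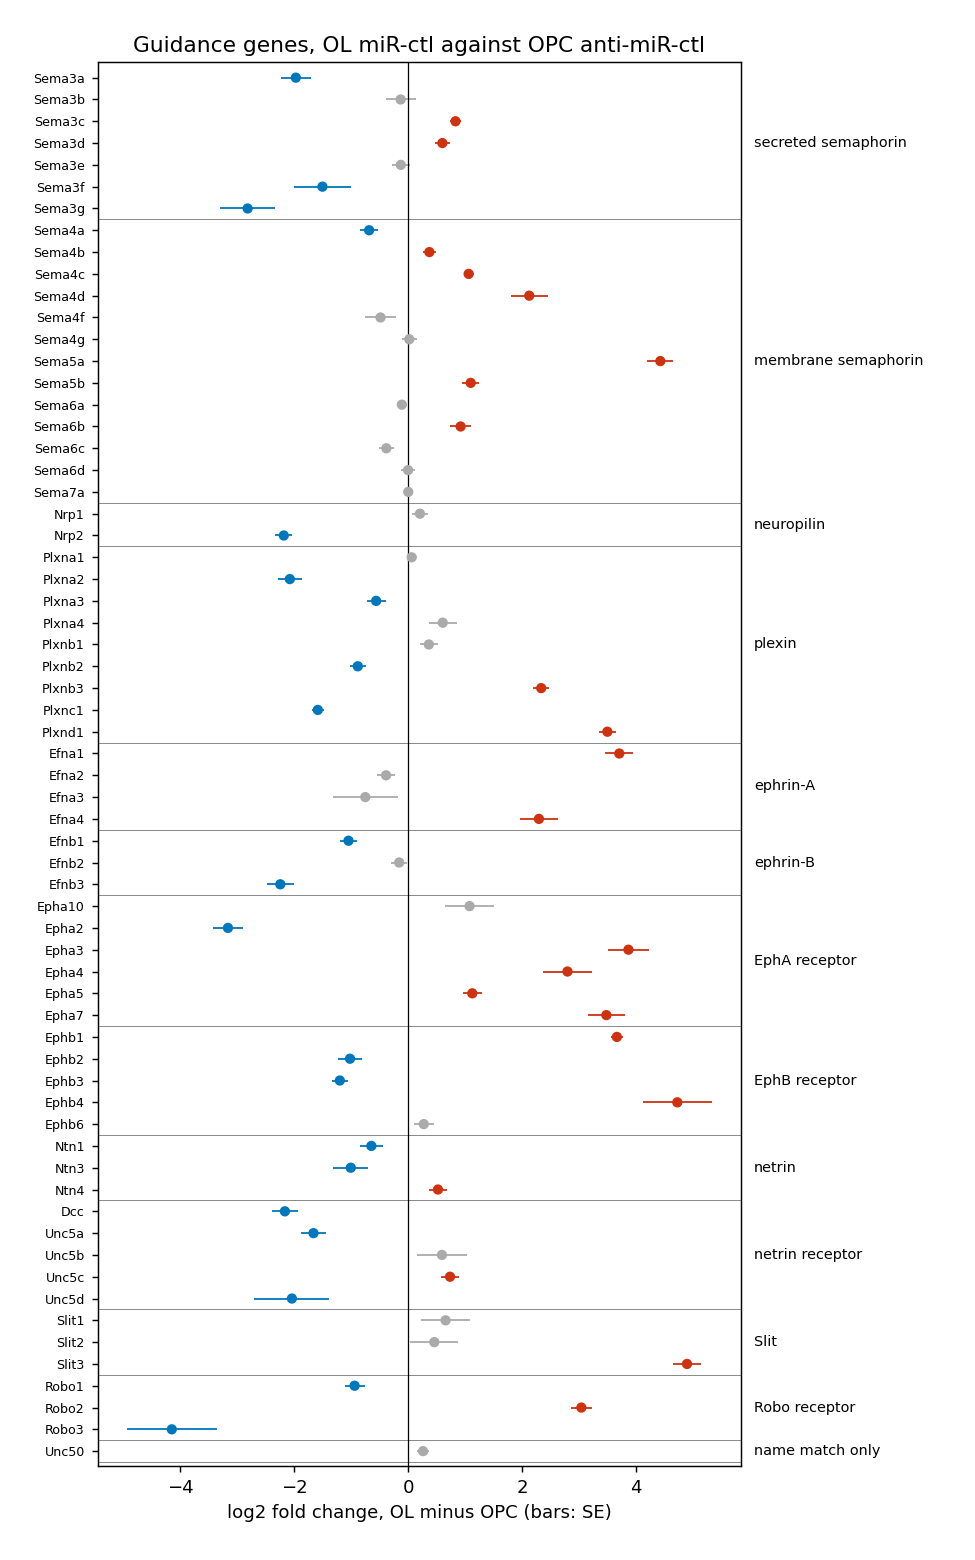
Log2 fold change of each tested guidance gene, OL miR-ctl minus OPC anti-miR-ctl, with its SE as a bar; red points were called higher in OLs, blue points called lower and grey points not called at an adjusted p under 0.05. Red points include Slit3, Ephb4, Sema5a and 4 of 6 tested EphA receptors, and blue points include Robo3, Epha2, Nrp2, Dcc and Plxna2.

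Ephrins and Ephs moved in both directions. Efna1, an A-type ephrin, went from 1.71 and 2.13 CPM in OPCs to 20.6 and 29.8 CPM in OLs (log2 fold change 3.70, SE 0.25, adjusted p = 0.000252), and Efna4 rose as well (log2 fold change 2.29). Of the 3 B-type ephrins 2 fell. Efnb3, known as a myelin-associated inhibitor of axon growth, went from 7.69 and 7.28 to 1.88 and 1.29 CPM (log2 fold change -2.24, SE 0.23, adjusted p = 0.00105) and Efnb1 fell by 1.05 on the log2 scale. Efnb2 was at 9.30 and 10.7 CPM in OPCs and 9.09 and 9.01 CPM in OLs, and did not pass (log2 fold change -0.16, SE 0.14, adjusted p = 0.37). Of the 6 EphA receptors 4 rose, namely Epha3, from 0.346 and 0.575 to 7.98 and 5.46 CPM (log2 fold change 3.86, SE 0.35, adjusted p = 0.000674), Epha7, from 1.99 and 2.00 to 28.6 and 16.1 CPM (log2 fold change 3.48, SE 0.32, adjusted p = 0.000711), Epha4 and Epha5. Epha4, which binds both ephrin classes, had 2.29 and 1.67 CPM in OPCs and 8.89 and 19.0 CPM in OLs, where the replicates were wider apart than in OPCs (log2 fold change 2.79, SE 0.42, adjusted p = 0.00381). Epha2 was the exception, at 4.66 and 4.13 CPM in OPCs and 0.552 and 0.429 CPM in OLs (log2 fold change -3.16, SE 0.26, adjusted p = 0.00046). Among EphB receptors Ephb1 rose from 9.74 and 10.8 to 136 and 127 CPM (log2 fold change 3.66, SE 0.10, adjusted p = 4.20e-05), while Ephb2 and Ephb3 fell by 1.02 and 1.20 on the log2 scale. Ephb4, the receptor of ephrin-B2, had 1 and 5 counts in the 2 OPC libraries and 92 and 62 counts in the OL libraries (log2 fold change 4.72, SE 0.60, adjusted p = 0.0021), so its fold change rests on few OPC counts.

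Netrin and Slit genes gave the remaining large values. Slit3, a secreted Robo ligand, stood at 0.277 and 0.219 CPM in OPCs and 7.21 and 7.94 CPM in OLs, the largest log2 fold change of any guidance gene tested here (log2 fold change 4.89, SE 0.24, adjusted p = 0.000111). Its OPC libraries held only 12 and 8 counts, so the size of this fold change rests on few OPC counts. Slit2 had 4.85 and 4.84 CPM in OPCs and 3.94 and 9.57 CPM in OLs, where the OL replicates lay on either side of the OPC libraries and no direction can be given. Robo2 rose from 1.87 and 2.38 to 18.9 and 16.2 CPM (log2 fold change 3.04, SE 0.18, adjusted p = 0.000187). Robo1 fell from 44.8 and 42.4 to 26.8 and 19.0 CPM (log2 fold change -0.94, SE 0.17, adjusted p = 0.00745). Robo3, a divergent Robo, fell from 59 and 41 counts to 5 and 0 counts (log2 fold change -4.14, SE 0.79, adjusted p = 0.00824). The netrin receptor Dcc fell from 44.5 and 40.3 to 11.7 and 7.39 CPM (log2 fold change -2.16, SE 0.22, adjusted p = 0.00104), as did Unc5a (log2 fold change -1.66) and the barely detected Unc5d (13 and 6 counts against 2 and 2; DESeq2 adjusted p = 0.237). Unc5c rose modestly (log2 fold change 0.74). Ntn1 fell from 81.1 and 71.4 to 59.3 and 39.1 CPM (log2 fold change -0.64, SE 0.21, adjusted p = 0.0435), Ntn3 fell by 1.01 on the log2 scale and Ntn4 rose by 0.52. Unc5b, at 38.3 and 40.3 CPM in OPCs and 33.1 and 86.8 CPM in OLs, overlapped. Without OPC anti-miR-ctl replicate 1, 28 guidance genes were called in this comparison in place of 43, and Robo3, Robo1 and Ntn1 were among those that did not pass; without replicate 2 of that group the count was 31. Epha1, with at most 10 counts in any library, was not tested in the 2 comparisons that include OPCs.

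In OPCs given anti-miR-145, 23 of 64 tested guidance genes were called after 24 h, 12 higher and 11 lower than with anti-miR-ctl. These are 18.8% and 17.2% of the genes tested, beside 12.1% called higher and 16.0% called lower among all 15496 genes, so that the share of falls was near that of all genes. Guidance genes had a median log2 fold change of -0.08 and all genes one of 0.00. The rises lay in A-type ephrins, 3 Eph receptors, netrins, Plxna2 and 4 semaphorins, and the falls in Nrp2, Efnb2, Sema4d, Unc5c, 3 plexins, Slit2, Epha5, Sema3b and Sema3c. The count depended on the libraries in the test: without OPC anti-miR-ctl replicate 1 the test called 15 guidance genes and without replicate 2 it called 14, whereas without OPC anti-miR-145 replicate 1 or 2 it called 28 and 33. A single fit of all 5 groups, which share one estimate of the spread, called 11.

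**Figure D3:**
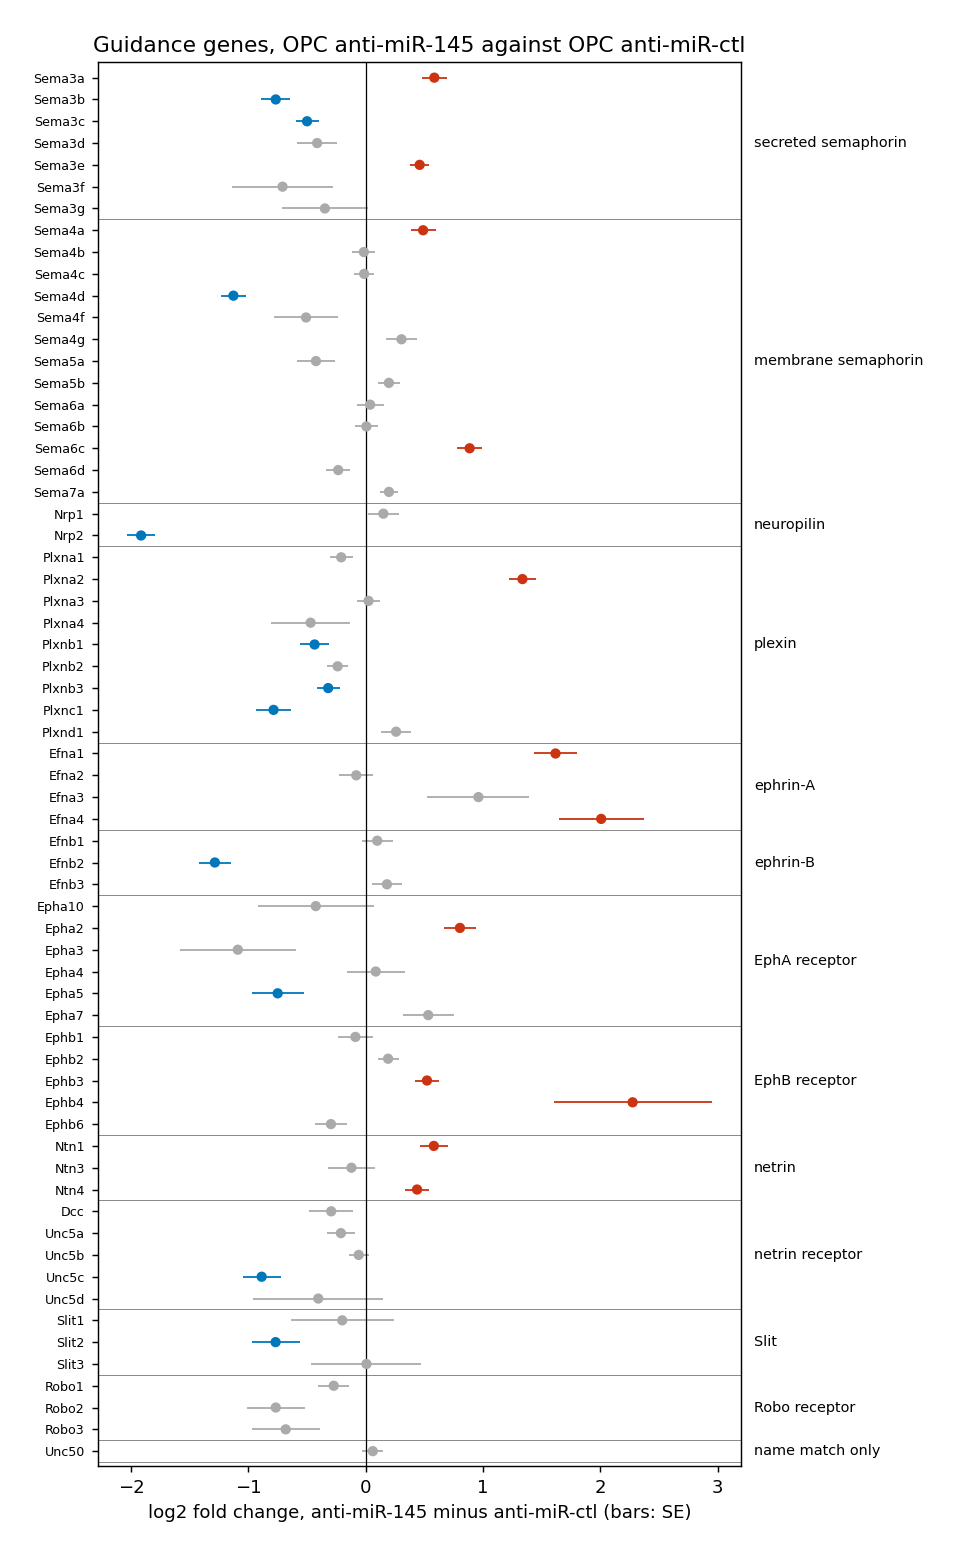
Log2 fold change of each tested guidance gene, OPC anti-miR-145 minus OPC anti-miR-ctl, with its SE as a bar; red points were called higher with anti-miR-145, blue points called lower and grey points not called at an adjusted p under 0.05. Nrp2 lies farthest to the left at -1.91, and Ephb4, Efna4, Efna1 and Plxna2 lie farthest to the right.

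Nrp2 gave the largest fall. It stood at 89.2 and 72.1 CPM with anti-miR-ctl and at 22.1 and 21.2 CPM with anti-miR-145, and no library of one group came near the other (log2 fold change -1.91, SE 0.12, adjusted p = 0.000105). Nrp1 overlapped between the groups, at 8.84 and 9.22 CPM with anti-miR-ctl and 9.12 and 11.1 CPM with anti-miR-145. Plxna2 rose from 81.2 and 78.6 to 181 and 227 CPM (log2 fold change 1.34, SE 0.11, adjusted p = 0.000271), alone among 9 plexins. A further 3 plexins fell, of which Plxnc1, a receptor of Sema7a, went from 38.8 and 38.7 to 19.0 and 26.5 CPM (log2 fold change -0.78, SE 0.15, adjusted p = 0.00861). The others were Plxnb1 (log2 fold change -0.43) and Plxnb3, which went from 232 and 219.7 to 168 and 198 CPM and stood near the threshold (log2 fold change -0.32, SE 0.10, adjusted p = 0.0485); Plxna4 overlapped, at 2.93 and 2.00 CPM with anti-miR-ctl and 1.26 and 2.35 CPM with anti-miR-145.

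Of the ligands of these receptors, Sema4d fell from 31.9 and 28.3 to 14.4 and 13.5 CPM (log2 fold change -1.13, SE 0.11, adjusted p = 0.000421). Sema3b, a secreted semaphorin, fell from 10.2 and 9.41 to 5.96 and 5.73 CPM (log2 fold change -0.77, SE 0.13, adjusted p = 0.00472), and Sema3c fell by 0.50 on the log2 scale. Sema3a rose, from 136 and 137 to 184 and 229.5 CPM (log2 fold change 0.59, SE 0.11, adjusted p = 0.00808), and in both anti-miR-145 libraries it stood above both controls. Sema6c, a transmembrane semaphorin, rose from 8.63 and 8.32 to 15.2 and 16.5 CPM (log2 fold change 0.89, SE 0.11, adjusted p = 0.0012), with smaller rises of Sema4a (0.49) and Sema3e (0.46) on the log2 scale. Sema5a had 25.1 and 25.9 CPM with anti-miR-ctl and 15.8 and 22.7 CPM with anti-miR-145 and did not pass (log2 fold change -0.42, SE 0.16, adjusted p = 0.0919). Sema3f, with 0.392 and 0.711 CPM with anti-miR-ctl and 0.352 and 0.322 CPM with anti-miR-145, did not pass (log2 fold change -0.71, SE 0.43, adjusted p = 0.263). Sema6a overlapped at 184 and 176 CPM with anti-miR-ctl and 164 and 209 CPM with anti-miR-145.

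In the ephrin system 2 of 4 A-type ligands rose and 1 of 3 B-type ligands fell. Efna1 rose from 1.71 and 2.13 to 5.93 and 5.96 CPM (log2 fold change 1.62, SE 0.18, adjusted p = 0.000904) and Efna4 from 0.254 and 0.246 to 1.16 and 0.897 CPM (log2 fold change 2.01, SE 0.36, adjusted p = 0.0071). Efna4 had only 11 and 9 counts with anti-miR-ctl. Efnb2, a ligand of EphB receptors, fell from 9.30 and 10.7 to 4.07 and 4.21 CPM (log2 fold change -1.28, SE 0.14, adjusted p = 0.000727). Efnb3 had 7.69 and 7.28 CPM with anti-miR-ctl and 8.07 and 9.08 CPM with anti-miR-145 and did not pass (log2 fold change 0.18, SE 0.12, adjusted p = 0.315). Of the receptors, Epha2 rose from 4.66 and 4.13 to 7.67 and 7.87 CPM (log2 fold change 0.80, SE 0.14, adjusted p = 0.00591) and Ephb3 rose by 0.52 on the log2 scale. Epha5 fell from 3.44 and 3.48 to 1.71 and 2.44 CPM (log2 fold change -0.75, SE 0.22, adjusted p = 0.0439, against a DESeq2 adjusted p of 0.0729), while Epha4 overlapped at 2.29 and 1.67 CPM with anti-miR-ctl and 1.89 and 2.37 CPM with anti-miR-145. Ephb4 rose from 1 and 5 counts to 14 and 18 counts, and DESeq2 did not call it (log2 fold change 2.28, SE 0.67, adjusted p = 0.0447 in edgeR; DESeq2 adjusted p = 0.142).

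Of 3 netrins 2 rose, and of 5 netrin receptors 1 fell. Ntn1 went from 81.1 and 71.4 to 103 and 128 CPM (log2 fold change 0.58, SE 0.12, adjusted p = 0.0115) and Ntn4, a netrin of basement membranes, rose by 0.44 on the log2 scale. Unc5c, a receptor for repulsion by netrin-1, fell from 41.7 and 39.7 to 18.1 and 26.4 CPM (log2 fold change -0.89, SE 0.16, adjusted p = 0.00761). Dcc, at 44.5 and 40.3 CPM with anti-miR-ctl and 27.4 and 42.5 CPM with anti-miR-145, and Unc5b, at 38.3 and 40.3 CPM with anti-miR-ctl and 37.1 and 39.1 CPM with anti-miR-145, overlapped between the groups. Slit2 fell from 4.85 and 4.84 to 2.36 and 3.38 CPM (log2 fold change -0.77, SE 0.20, adjusted p = 0.0312). Its receptors Robo1, at 44.8 and 42.4 CPM with anti-miR-ctl and 31.3 and 41.7 CPM with anti-miR-145 (log2 fold change -0.27, SE 0.13, adjusted p = 0.175), and Robo2, at 1.87 and 2.38 CPM with anti-miR-ctl and 1.18 and 1.33 CPM with anti-miR-145 (log2 fold change -0.77, SE 0.25, adjusted p = 0.0583), were lower in both anti-miR-145 libraries without passing the test.

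**Figure D4:**
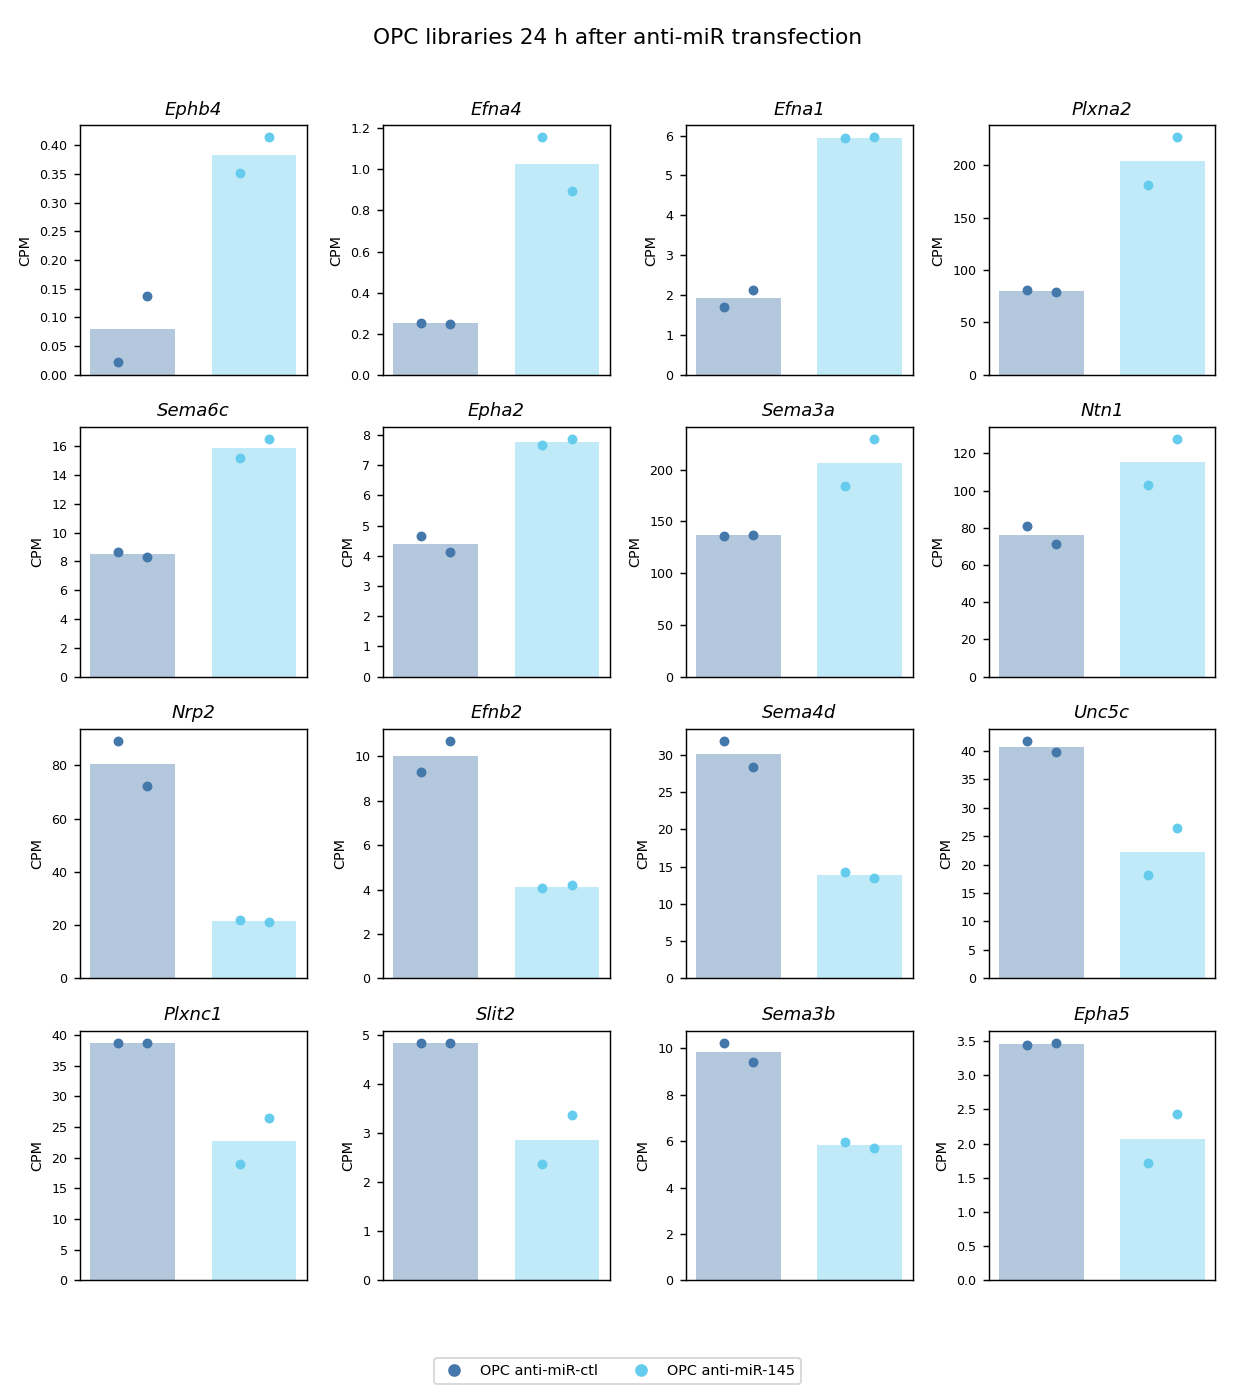
CPM of the 16 guidance genes with the largest called changes in OPCs, 8 higher (top) and 8 lower (bottom) with anti-miR-145; points are the 2 libraries of a group, bars their mean, and each panel has its own axis from 0. In all 16 panels the 2 groups do not overlap, which the choice of these genes required, and in Ephb4 and Efna4 no library is above 1.16 CPM.

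Markers of other cells also differed between the OPC groups. Of 9 microglial markers 8 were called, 5 higher (among them C1qa, C1qb and C1qc) and 3 lower with anti-miR-145, and their sum was 814 to 1003 CPM against 827 to 872 CPM in the controls. The 6 neuronal markers summed to 132 to 141 CPM against 82.0 to 83.6 CPM, with 4 of 6 called higher. The 4 endothelial markers summed to 2.21 to 2.26 CPM against 11.0 to 11.7 CPM, with 2 lower and 2 higher. That fall lay mostly in Flt1, at 1.01 and 0.759 CPM against 10.6 and 10.0 CPM. The 8 astrocyte markers summed to 478 to 523 CPM against 762 to 784 CPM, with 1 called higher and 4 lower. The OPC list summed to 7290.4 to 8353 CPM against 6177 to 6326 CPM, with 3 called higher and 1 lower. That of maturing OLs summed to 989.7 to 991 CPM against 1068 to 1126 CPM, although 2 of its genes were called higher and 1 lower. The 5 fibroblast or mural markers were near 0 in both groups (3.10 to 4.32 against 2.33 to 3.12 CPM in sum). The part of these markers in the guidance result was not tested.

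The next comparison asked what excess miR-145 does in differentiating OLs. No guidance gene was called by edgeR, fitted on the groups alone, among 63 tested, as among all 15461 genes (0% called). At an unadjusted p under 0.05 there were 17, 11 higher and 6 lower with miR-145, which is 27.0% of the guidance genes beside 13.4% of all genes. DESeq2 called 11, 7 higher and 4 lower, or 17.5% beside 4.20% of all genes. The 2 groups did not overlap in 23 genes that were higher with miR-145 (36.5%, beside 22.9% of all genes) and in 14 that were lower (22.2%, beside 24.4%). Guidance genes had a median log2 fold change of 0.19 and all genes one of -0.01.

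Higher with miR-145 by the smallest p were a secreted semaphorin, a neuropilin and a pair of EphA receptors. Sema3c stood at 37.6 and 39.1 CPM in OL miR-ctl and 64.1 and 69.5 CPM in OL miR-145 (log2 fold change 0.81, SE 0.11, adjusted p = 0.158; DESeq2 adjusted p = 5.19e-05). Nrp2 stood at 19.5 and 16.4 CPM in OL miR-ctl and 38.1 and 32.4 CPM in OL miR-145 (log2 fold change 0.98, SE 0.15, adjusted p = 0.158; DESeq2 adjusted p = 0.000267). For these genes the replicates of each group lay close together, and the gap between groups was wider than the gap within either. The choice of genes by smallest p and by groups that did not overlap favours such a pattern. Epha3 stood at 7.98 and 5.46 CPM in OL miR-ctl and 16.1 and 18.4 CPM in OL miR-145 (log2 fold change 1.37, SE 0.23, adjusted p = 0.158; DESeq2 adjusted p = 0.000189). Epha5 stood at 7.08 and 8.16 CPM in OL miR-ctl and 16.0 and 13.2 CPM in OL miR-145 (log2 fold change 0.95, SE 0.19, adjusted p = 0.164; DESeq2 adjusted p = 0.00549). Nrp1 was also higher in both libraries, at 9.69 and 11.4 CPM in OL miR-ctl and 16.5 and 17.4 CPM in OL miR-145 (log2 fold change 0.69, SE 0.16, adjusted p = 0.19; DESeq2 adjusted p = 0.036). Robo1 was likewise higher, at 26.8 and 19.0 CPM in OL miR-ctl and 46.2 and 35.0 CPM in OL miR-145 (log2 fold change 0.83, SE 0.22, adjusted p = 0.227; DESeq2 adjusted p = 0.0415). Sema7a, a lipid-anchored semaphorin that binds integrins and plexin C1, was the other higher gene that DESeq2 called (adjusted p = 0.0148), at 98.8 and 104 CPM in OL miR-ctl and 139.9 and 176 CPM in OL miR-145; it was named after its values were seen.

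Lower with miR-145 were Slit3, Plxnb3, Ephb1 and Sema3d. Slit3 stood at 7.21 and 7.94 CPM in OL miR-ctl and 3.62 and 3.61 CPM in OL miR-145 (log2 fold change -1.06, SE 0.21, adjusted p = 0.164; DESeq2 adjusted p = 0.00735). Plxnb3 stood at 1293 and 1004 CPM in OL miR-ctl and 681 and 666 CPM in OL miR-145 (log2 fold change -0.76, SE 0.16, adjusted p = 0.178; DESeq2 adjusted p = 0.00231). Ephb1 stood at 136 and 127 CPM in OL miR-ctl and 68.2 and 90.7 CPM in OL miR-145 (log2 fold change -0.72, SE 0.16, adjusted p = 0.19; DESeq2 adjusted p = 0.0157). Sema3d, a secreted semaphorin, stood at 219.8 and 173 CPM in OL miR-ctl and 119 and 136 CPM in OL miR-145 (log2 fold change -0.62, SE 0.16, adjusted p = 0.216; DESeq2 adjusted p = 0.0428). Sema5a, the ligand of plexin B3, was at 665 and 441 CPM in OL miR-ctl and 366 and 327 CPM in OL miR-145, lower in both libraries without passing either tool's test (log2 fold change -0.67, SE 0.22, adjusted p = 0.303; DESeq2 adjusted p = 0.0918).

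**Figure D5:**
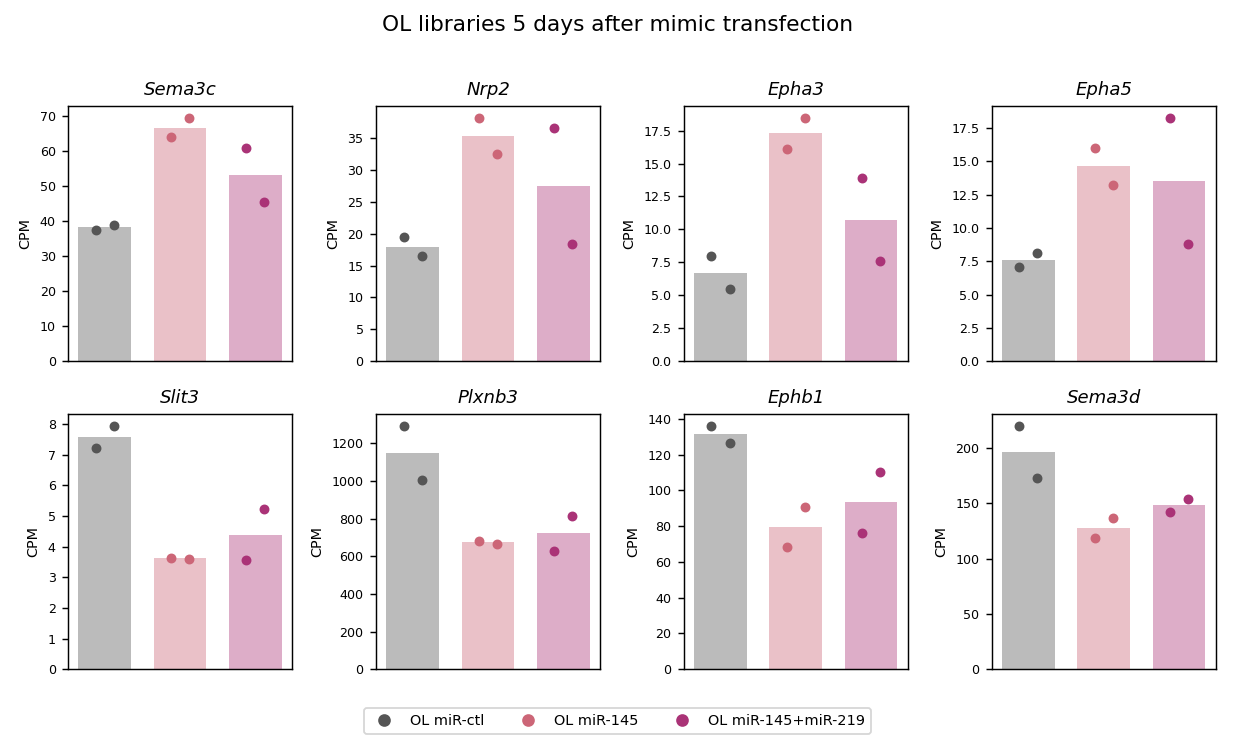
CPM of the 4 guidance genes higher (top) and the 4 lower (bottom) with miR-145 with the smallest p of those that had no overlap between groups, in the 3 OL groups; points are the 2 libraries of a group, bars their mean, and each panel has its own axis from 0. The OL miR-145+miR-219 libraries lie on the miR-145 side of the control mean in all 8 genes, and their replicates are wide apart in Nrp2, Epha3 and Epha5. The 8 genes were chosen against the same control libraries, so this shared side is partly built in.

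The other genes followed across all comparisons did not pass the test of either tool, each fitted on the groups alone, in OL miR-145. Groups did not overlap for Robo2, at 18.9 and 16.2 CPM in OL miR-ctl and 22.6 and 21.5 CPM in OL miR-145 (log2 fold change 0.33, adjusted p = 0.394), nor did they for Sema3a, at 44.5 and 25.6 CPM in OL miR-ctl and 53.1 and 45.0 CPM in OL miR-145 (0.49, adjusted p = 0.479). The same held for Efnb2, at 9.09 and 9.01 CPM in OL miR-ctl and 9.86 and 12.7 CPM in OL miR-145 (0.32, adjusted p = 0.512), Sema6a, at 172 and 165 CPM in OL miR-ctl and 129 and 154 CPM in OL miR-145 (-0.24, adjusted p = 0.468), Plxna4, at 3.89 and 3.71 CPM in OL miR-ctl and 2.21 and 3.61 CPM in OL miR-145 (-0.37, adjusted p = 0.638), and Sema3f, at 0.201 and 0.184 CPM in OL miR-ctl and 0.201 and 0.278 CPM in OL miR-145 (0.32, adjusted p = 0.83). Sema3f had 8 and 6 counts in OL miR-ctl and 7 and 11 in OL miR-145. Its groups were apart only in CPM, by less than the printed digits show. Groups overlapped for Sema4d (89.7 and 176 CPM in OL miR-ctl, 80.8 and 131 CPM in OL miR-145), Unc5b (33.1 and 86.8 CPM in OL miR-ctl and 61.5 and 106 CPM in OL miR-145), Slit2 (3.94 and 9.57 CPM in OL miR-ctl and 4.34 and 10.6 CPM in OL miR-145), Epha4 (8.89 and 19.0 CPM in OL miR-ctl and 15.9 and 19.0 CPM in OL miR-145), Ntn1 (59.3 and 39.1 CPM in OL miR-ctl and 49.4 and 37.3 CPM in OL miR-145), Dcc (11.7 and 7.39 CPM in OL miR-ctl and 10.1 and 7.56 CPM in OL miR-145) and Efnb3 (1.88 and 1.29 CPM in OL miR-ctl and 1.78 and 0.960 CPM in OL miR-145). In Sema4d, Unc5b and Slit2 replicate 2 was above replicate 1 in all 3 OL groups.

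Of all genes tested, 22.9% were higher in both OL miR-145 libraries than in both controls and 24.4% were lower in both. By role, both neuropilins, 4 of 9 plexins, 5 of 13 membrane-bound and 3 of 6 secreted semaphorins (Sema3f among them, on few counts) were higher in both OL miR-145 libraries than in both controls. So were 3 of 7 EphA and 2 of 5 EphB receptors, 2 of 3 B-type ephrins and 2 of 3 Robos. Lower in both were 2 plexins, 4 membrane-bound semaphorins and 1 secreted semaphorin. Another 2 EphB receptors, 2 of 4 A-type ephrins, 2 of 3 Slits and 1 of 3 netrins were also lower. The 4 netrin receptors tested all overlapped. Among the genes not described by name here, log2 fold changes ran from -0.62 for Ntn3 to 1.17 for Epha2, a gene at 0.552 and 0.429 CPM in the controls and 0.690 and 1.52 CPM with miR-145. Sema3g and Unc5d were too low to be tested in this comparison.

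Markers of other cells also differed between these OL groups. All 8 astrocyte markers were higher in both libraries, 7 of them at an unadjusted p under 0.05 and none called, with a median log2 fold change of 0.88. The 5 fibroblast or mural markers summed to 10.5 to 54.2 CPM against 3.77 to 4.38 CPM, with Dcn at or near 0 in the controls, and 9 microglial markers to 331 to 876 CPM against 352 to 531 CPM. The 4 endothelial markers summed to 6.52 to 10.1 CPM against 15.3 to 21.1 CPM, with 2 lower and 2 higher. Kdr held most of that fall, at 9.06 and 5.23 CPM against 20.1 and 14.3 CPM. The 6 neuronal markers summed to 110.4 to 142 CPM against 130.1 to 137 CPM. The 9 genes of maturing OLs summed to 10589 to 16702 CPM against 11667 to 20977 CPM and the 8 OPC genes to 2745 to 3137 CPM against 2500.0 to 3228 CPM. The part of these in the guidance result was not tested.

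OLs given both mimics were compared with the control OLs next. edgeR called no guidance gene of 62 tested and none of 15436 genes (0%). At an unadjusted p under 0.05 there were 8 guidance genes, or 12.9% beside 6.19% of all genes, 3 higher and 5 lower, and DESeq2 called 0 guidance genes and 0.687% of all genes. The groups did not overlap in 11 guidance genes that were higher (17.7%, beside 17.2% of all genes) and 9 that were lower (14.5%, beside 19.5%). Plxnc1 stood at 13.9 and 12.2 CPM in OL miR-ctl and 21.0 and 16.9 CPM in OL miR-145+miR-219 (log2 fold change 0.55, SE 0.17, adjusted p = 0.8), and Sema3c at 37.6 and 39.1 CPM in OL miR-ctl and 60.8 and 45.5 CPM with both mimics (log2 fold change 0.48, SE 0.16, adjusted p = 0.8). Sema4b, a transmembrane semaphorin, had a log2 fold change of 0.42 and Epha5 one of 0.84, the latter with replicates at 18.2 and 8.82 CPM. On the lower side Plxnb3 stood at 627 and 816 CPM with both mimics (log2 fold change -0.67, SE 0.21, adjusted p = 0.8), and Slit3 at 3.56 and 5.22 CPM (log2 fold change -0.78, SE 0.25, adjusted p = 0.8). Sema5b had a log2 fold change of -0.50 and Ephb2 one of -0.63. Sema5a, at 395 and 375 CPM, and Nrp1, at 15.7 and 11.9 CPM, had log2 fold changes of -0.52 and 0.39 (adjusted p = 0.814 and 0.814). Groups overlapped for the other genes followed, which stood with both mimics at 48.4 and 27.5 CPM for Sema3a, 0.295 and 0.140 for Sema3f, 102 and 194 for Sema4d, 148 and 174 for Sema6a, 3.07 and 4.47 for Plxna4, 36.5 and 18.4 for Nrp2 and 13.7 and 13.6 for Epha4. The same held of Efnb2 at 8.52 and 10.4 CPM, Efnb3 at 2.16 and 1.10, Ntn1 at 50.1 and 37.3, Dcc at 10.2 and 6.80, Unc5b at 83.2 and 157, Slit2 at 4.96 and 9.58, Robo1 at 40.0 and 20.1 and Robo2 at 26.2 and 18.6 CPM. Sema3g, Unc5d and Robo3 were not tested. The control libraries are those of the miR-145 comparison, so the values of the 2 mimic groups are not independent of each other. The astrocyte sum of these libraries, given above, also lay over that of the controls, and its part in these values was not tested.

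Set directly against miR-145 alone, the double mimic gave no called guidance gene. edgeR called 0 of 63 and 0% of 15501 genes, no guidance gene had an unadjusted p under 0.05 (1.47% of all genes did), and DESeq2 called 0 of the guidance genes and 0.0581% of all genes. The groups did not overlap in 3 genes that were higher (4.76%, beside 13.2% of all genes) and in 8 that were lower (12.7%, beside 11.6%). The higher genes were Sema3d, Sema5a and Ntn3 (log2 fold changes 0.21, 0.14 and 0.29). Of the lower genes, Epha4 (-0.36), Epha3 (-0.69), Plxnb2 (-0.25) and Sema3c (-0.34) had the smallest p and Nrp1 had -0.31. The adjusted p of each of these genes rounded to 1. Replicates could be wider apart than the groups, as for Nrp2 at 36.5 and 18.4 CPM with both mimics and 38.1 and 32.4 CPM with miR-145 alone. A p that misses the threshold with 2 libraries a group does not show that the 2 treatments act alike.

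Intracellular effectors of the guidance receptors were followed as a list of 39 gene IDs (38 symbols, Abl1 having 2 IDs between which reads may be split). In OPC anti-miR-145, 10 rose and 5 fell, 25.6% and 12.8% of the 39, beside 12.1% and 16.0% of all genes. The total of 15 ranged from 6 without OPC anti-miR-ctl replicate 1 to 25 without OPC anti-miR-145 replicate 2, and was 9 without OPC anti-miR-ctl replicate 2 and 9 in the fit of all 5 groups. Vav3, a guanine nucleotide exchange factor downstream of Eph receptors, rose from 12.7 and 12.9 to 66.4 and 69.2 CPM (log2 fold change 2.39, SE 0.09, adjusted p = 2.65e-05). The tyrosine kinase Fyn, which acts in netrin and semaphorin signalling and in OL maturation, rose from 467 and 474 to 744 and 760.2 CPM (log2 fold change 0.66, SE 0.08, adjusted p = 0.0011). Dpysl4, a collapsin response mediator protein, rose from 69.0 and 67.9 to 112 and 113 CPM (log2 fold change 0.70, SE 0.08, adjusted p = 0.000814). Another of that family, Dpysl5, fell from 8.84 and 7.44 to 3.32 and 3.63 CPM (log2 fold change -1.24, SE 0.15, adjusted p = 0.00138), and Farp2 and Rasa1, regulators of Rac and Ras, fell by 0.65 and 0.43 on the log2 scale. Between control OLs and control OPCs 16 effectors were higher and 10 lower, 41.0% and 25.6% of the 39, beside 28.8% and 28.7% of all genes. Dpysl4 (3.25), Chn2 (2.80), a GTPase-activating protein that turns Rac off, and Mical3 (2.60), of a family that oxidizes actin, were highest on the log2 scale. Dpysl5 (-1.97), Arhgap39 (-1.76) and Rasa1 (-1.17) were lowest. Without OPC anti-miR-ctl replicate 1 or replicate 2 the total of 26 came to 17. In OL miR-145 no effector was called by edgeR, 9 had an unadjusted p under 0.05 (23.1%, beside 13.4% of all genes) and DESeq2 called 1 (2.56%, beside 4.20%). For the double mimic against the controls edgeR called 0, 5 had an unadjusted p under 0.05 (12.8%, beside 6.19%) and DESeq2 called 0 (beside 0.687%). Against miR-145 alone all these counts were 0, beside 1.47% of all genes at an unadjusted p under 0.05 and 0.0581% called by DESeq2.

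Other guidance cues and co-receptors, 29 genes found of 30 listed, were called most often between control OLs and control OPCs. In control OLs against control OPCs 19 rose and 5 fell of 29, or 65.5% and 17.2% beside 28.8% and 28.7% of all genes, with a median log2 fold change of 0.88. Kdr, a VEGF receptor that semaphorin complexes can include and that is also an endothelial marker, rose from 0.300 and 0.383 to 20.1 and 14.3 CPM (log2 fold change 5.64, SE 0.28, adjusted p = 0.000113). Draxin, a secreted ligand of Dcc, rose from 0.415 and 0.328 to 9.29 and 10.9 CPM (log2 fold change 4.73, SE 0.23, adjusted p = 0.000106), and the adhesion molecule Nrcam from 13.7 and 13.7 to 118 and 108 CPM (log2 fold change 3.03, SE 0.09, adjusted p = 4.50e-05). Islr2 (-4.50), Dscam (-2.03) and L1cam (-1.27) had the lowest log2 fold changes. The total of 24 came to 15 without OPC anti-miR-ctl replicate 1 and to 12 without replicate 2. With anti-miR-145 in OPCs 4 of 29 rose and 5 fell, or 13.8% and 17.2%, near the 12.1% and 16.0% of all genes. This total of 9 came to 3 without OPC anti-miR-ctl replicate 1 or replicate 2, to 14 without OPC anti-miR-145 replicate 2 and to 1 in the fit of all 5 groups. Draxin rose from 0.415 and 0.328 to 1.08 and 1.63 CPM (log2 fold change 1.84, SE 0.36, adjusted p = 0.00979), and Gpc1, a glypican that binds Slits, and Lingo1, a co-receptor that restrains OL differentiation, rose by 0.49 and 0.48 on the log2 scale. L1cam (log2 fold change -1.03), Flrt1 (-0.66) and the netrin receptor Dscam (-0.64) fell, L1cam near the threshold (adjusted p = 0.0485, with DESeq2 0.124). In OL miR-145 edgeR called 0 of 28, 7 had an unadjusted p under 0.05 (25.0%, beside 13.4% of all genes) and DESeq2 called 4 (14.3%, beside 4.20%). For the double mimic against the controls edgeR called 0, 1 had an unadjusted p under 0.05 (3.57%, beside 6.19%) and DESeq2 called 1 (3.57%, beside 0.687%). Against miR-145 alone these counts were all 0, beside the shares of all genes given above.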

How the data were processed

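RNAseq libraries of 5 groups of rat OPCs and OLs were analysed, 2 per group. The authors prepared stranded mRNA libraries, assigned reads to GENCODE Rnor6.0 transcripts with Salmon 0.12.0, summed them per gene with tximport and deposited estimated counts (expected counts, not normalized) for 23487 genes, which were rounded here. Symbols came from the authors' deposited DESeq2 table of OL miR-145 against OL miR-ctl, whose own fold changes and p-values were not used. The paper's methods describe lentivirus for RNAseq and its results and the labels mimics, and the labels were followed. Summed over genes, replicates differed beyond counting error in every group.

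Each of 5 comparisons was fitted on its 4 libraries with edgeR 4.0.16 in R 4.3.3 (quasi-likelihood test, TMM, a floor of 5 counts in 2 or more of them), and a gene was called when its p, adjusted over all genes tested by Benjamini-Hochberg, lay under 0.05. Each SE is the log2 fold change divided by the root of its F statistic. DESeq2 1.42.0 was the main alternative, and other filters, scalings, designs and leaving out each library were tried. The functions were tested on simulated data. The small number of libraries limits the precision of every gene, and low counts further limit that of the lowest genes. Which of these weighs more was not tested gene by gene.

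The guidance genes and the lists of effectors, other cues and markers were chosen with earlier results of these data known. Of the list of maturing OL genes, 1 gene is not reported here and was left out of its sums. The text names, per comparison and direction, the 8 called guidance genes with the largest log2 fold change whose groups did not overlap, or where fewer than 4 were called the 4 with the smallest p, and up to 3 called genes of the other lists. It also gives levels of 18 further genes in every comparison, with a fold change where groups did not overlap. Beyond these rules, the text mentions more briefly the other called guidance genes of the comparisons with calls. Those other genes were not followed singly under the other settings. Figures were drawn with Python 3.11.15 and matplotlib 3.10.9.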

Additional observations from a re-analysis of the deposited data

How the results depend on the processing

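For OL miR-145 against OL miR-ctl, where edgeR called 0 genes of each list, DESeq2 called 11 guidance genes, 1 effector and 4 other cues, and edgeR with a replicate block called 22, 11 and 10 (34.9%, 28.2% and 35.7% of each list, beside 14.7% of all genes). Among the 22 were Sema5a, Sema3a and, although its groups overlapped, Unc5b, which neither tool called without the block. Against the controls the double mimic gave 1 guidance gene and 1 other cue with the replicate block and 1 other cue with DESeq2, and against miR-145 alone the block gave 2 guidance genes (0.855% and 1.19% of all genes with the block in these comparisons). Nothing in the labels says that a shared number marks a shared culture, and each pair of groups shares only 2 numbers; same-numbered deviations correlated at 0.23, 0.23 and 0.42 in the OL comparisons in the order named, -0.07 for anti-miR-145 and 0.03 between control OLs and OPCs, where the block moved no count by over 1.5 times. For anti-miR-145 one fit of all 5 groups called 11 guidance genes, 9 effectors and 1 other cue. Leaving out 1 library at a time gave 14 to 33 guidance genes, 6 to 25 effectors and 3 to 14 other cues for anti-miR-145, 28 to 47, 17 to 34 and 12 to 27 between control OLs and control OPCs, and 0 in every OL mimic comparison. The cause of these moves was not tested. Other filters and DESeq2's size factors kept every list count within 1.5 times. Only the genes given with a fold change by the naming rules were followed singly, and none of them changed direction under any setting run. In the comparisons with calls, some genes so followed lost their call under a setting other than leaving out a library or the pooled fit. With anti-miR-145 these were Ephb4, Epha5, Plxnb3 and L1cam, and between controls Unc5d, Sema3f and L1cam. Between controls DESeq2 also called 21 guidance genes higher in place of 22, and none of the followed genes listed here accounts for that. Depth limits Robo3, Unc5d, Sema3f, Sema3g, Ephb4 and Epha1, each with libraries of 5 counts or fewer.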
